A study of Saccharomyces cerevisiae with 26 samples.

Results

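The 10 nuclear genes that encode the core histones, H2A.Z and H1 of *S. cerevisiae* were examined for the A-rich positions that this study masked in its RNA 3′ end tracks. They are *HTA1* and *HTA2* (H2A), *HTB1* and *HTB2* (H2B), *HHT1* and *HHT2* (H3), *HHF1* and *HHF2* (H4), *HTZ1* (the variant H2A.Z) and *HHO1* (the linker histone H1), that is 10 of the 6002 nuclear protein-coding genes of the R64 annotation. They were chosen by name and not by a value in the list, but with earlier results of these data known. For each gene, the masked positions on its own strand were counted in the coding sequence and in the 200 bp after the stop codon, here called the 3′ flank. The other 5992 genes served as background, and they include *CSE4*, which encodes the centromeric variant of H3. Below, histone genes means the 10 genes named here.

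The study sequenced RNA 3′ ends of total RNA and of RNA labeled for 2 min with 4-thiouracil (4tU), a uracil analog that enters new transcripts. The labels describe 26 libraries, of which 9 were made from polyadenylated RNA directly (pA+) and 17 after tailing with *E. coli* poly(A) polymerase and ribodepletion (pA+,-). Cells were Mex67-AA (strain 1, with fpr1::NAT and MEX67-FRB::kanMX6) or Nab2-AA (strain 2, with fpr1::loxP-LEU-loxP and Nab2p-FRB::HIS3). Both are W303 derivatives that also carry tor1-1 together with the anchor RPL13-2xFKBP12::TRP1, and in them rapamycin moves the FRB-tagged RNA export or poly(A)-binding factor out of the nucleus. All carried a multicopy plasmid that overexpresses the uridine permease gene *FUI1* and grew without uracil, 12 libraries came from cells given rapamycin for 15 min and the others from cells given none, and 2 mock libraries had no 4tU. The list itself has no samples: it was made once, from the sacCer3 genome sequence, and applied to every library alike. Counts taken from it therefore have no replicate error and no sequencing depth, and no test was run on them. The strains derive from W303, whereas the list and the reference hold the S288C sequence. The 3′ end tracks were not analysed here.

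Histones package DNA into nucleosomes, each with a pair of every core histone H2A, H2B, H3 and H4, and H1 binds the DNA between them. Their flexible tails are rich in lysine and arginine, and enzymes acetylate or methylate the lysines. Lysine is encoded by AAA and AAG and arginine often by AGA in yeast. Coding sequence for a basic tail can therefore be rich in A on the sense strand. The A content of the tails alone was not counted here. Each H2A gene lies head to head with an H2B gene, and each H3 gene with an H4 gene. In 3′ end sequencing by oligo(dT) priming, an A-rich stretch inside a transcript can be primed as if it were a poly(A) tail, and the masked positions are the places just upstream of such stretches. By the methods, a position was removed if over 4 of the 6 bp after it were A and none was C or T, or if over 12 of the 18 bp after it were A.

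In every histone gene masked positions lay both in the first 40 codons, which include the N-terminal tail, and in the rest of the coding sequence. The first 40 codons of both H3 and both H4 genes are given here in the sense direction, 5′ to 3′, with masked positions in capitals, to set each copy against the other. They lie at chrII:256331-256450 (plus strand, *HHT1*), chrXIV:575931-576050 (minus, *HHT2*), chrII:255565-255684 (minus, *HHF1*) and chrXIV:576727-576846 (plus, *HHF2*) of sacCer3.
HHT1: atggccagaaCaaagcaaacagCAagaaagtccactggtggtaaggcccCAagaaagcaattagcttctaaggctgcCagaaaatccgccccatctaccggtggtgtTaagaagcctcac
HHT2: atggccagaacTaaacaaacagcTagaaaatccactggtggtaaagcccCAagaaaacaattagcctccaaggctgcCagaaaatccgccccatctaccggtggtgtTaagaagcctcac
HHF1: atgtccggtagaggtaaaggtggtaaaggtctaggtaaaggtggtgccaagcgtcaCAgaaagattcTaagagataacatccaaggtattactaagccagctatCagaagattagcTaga
HHF2: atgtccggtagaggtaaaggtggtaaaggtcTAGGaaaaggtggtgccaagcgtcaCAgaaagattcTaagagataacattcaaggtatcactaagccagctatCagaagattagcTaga

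The H2B tails held the longest and most frequent capitals of the core histones. They lie at chrIV:914593-914712 (minus strand, *HTB1*) and chrII:236492-236611 (plus strand, *HTB2*), again with masked positions in capitals.
HTB1: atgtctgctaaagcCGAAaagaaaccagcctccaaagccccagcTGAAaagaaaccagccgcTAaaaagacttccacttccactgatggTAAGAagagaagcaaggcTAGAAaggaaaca
HTB2: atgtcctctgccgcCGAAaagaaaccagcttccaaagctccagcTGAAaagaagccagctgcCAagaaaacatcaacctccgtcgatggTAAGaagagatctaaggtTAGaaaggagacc

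Over the coding sequence, 217 of 4218 sense positions of the histone genes were masked, or 5.14%, against 3.07% of the coding positions of the other genes pooled. The median share of the 10 genes was 4.54%, and that of the 5992 other genes was 2.61%. A share above that median was found in 9 of the 10 histone genes, against 50% of the other genes by construction. *HTA1* was the exception, with 7 of 399 positions (1.75%). *HHO1* had the highest share, 62 of 777 positions (7.98%), above the share of 96.1% of the other genes. Between them lay *HTB1* (6.31%), *HTB2* (5.56%), *HHF2* (5.45%), *HTZ1* (4.69%), *HHT1* (4.38%), *HTA2* (4.26%), *HHF1* (4.17%) and *HHT2* (4.14%). The masked positions formed 89 runs, of which the longest, 18 bp, was in *HHO1*. On the antisense strand of the same coding sequences 27 positions were masked. The sense share exceeded the antisense share in all 10 histone genes, and in 85.2% of the other genes.

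**Figure D1:**
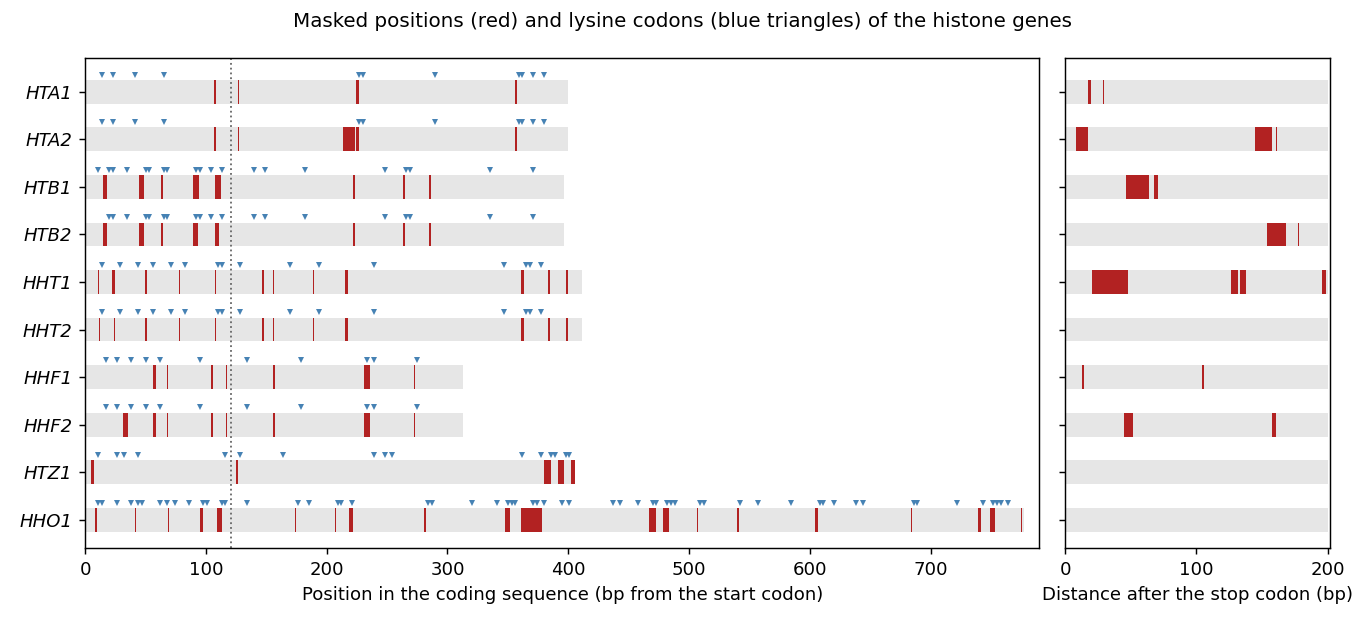
Map of the 10 histone genes. The left panel shows the coding sequence by distance from the start codon in bp, the right panel the 200 bp after the stop codon, red bars mark masked sense positions, blue triangles lysine codons, and the dotted line the end of codon 40. Red bars gather left of the dotted line in *HTB1* and *HTB2*, at the end of the coding sequence in *HTZ1*, and in a 27 bp block after the stop codon of *HHT1*.

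Lysine made up a median 11.8% of the residues of the histones and 7.30% of those of the other proteins. The histone genes used AAA for 74 of their 189 lysine codons (39.2%), whereas the other genes used it for 58.4% of theirs. The A content of the histone coding sequences, with a median of 31.4%, was below the 32.6% of the other genes. Single genes ranged from 29.6% in *HTA1*, the gene with the lowest masked share, to 35.0% in *HHO1*, the gene with the highest, and *HTB1* (33.1%), *HHT1* (32.8%) and *HHT2* (33.8%) were above the median of the other genes as well. Between the extremes the order of the masked shares was not that of the A content. *HHT2* had a masked share of 4.14%, and *HHF2*, with 30.1% A, had 5.45%. The longest unbroken run of A was 9 bp in *HHO1*, 7 bp in *HTA2* and *HTZ1*, and 3 to 5 bp in the rest.

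Which codons the masked positions preceded was counted next. A codon was counted if a masked position lay among the 4 bases before it, so that the whole codon fell in the 6 bp window of that position. Among AAG codons this held for 69 of 115 in the histone genes (60.0%), against 39.8% in the other genes. For AAA codons it held for 31 of 74 (41.9%), against 45.7%. For the arginine codon AGA it held for 53 of 89 (59.6%), against 40.6%. Codons of 1 gene and of its copy share their sequence and are not independent. Of the 89 runs, 61 ended before a window that held at least part of a lysine codon. Another 24 ended before a window with arginine and no lysine. A pair of glutamates followed 2 runs, at the same place in *HHF1* and *HHF2*. For 2 more, in *HTZ1* and *HHO1*, the window reached past the stop codon. No share over the runs of the other genes is given, so these counts do not show whether the histone genes differ. In *HHT1* and *HHT2* 5 of 12 runs each, and in *HHF1* and *HHF2* 3 runs each, stood before a window with arginine and no lysine. In the H3 genes some of these windows also held a glutamate codon, and in the H2B genes every window of this kind did. A masked position lay among the 4 bases before 25 of 59 codons GAA, for glutamate, in the histone genes (42.4%), against 37.8% in the other genes.

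The H2A genes, whose product carries a lysine-bearing C-terminal tail besides the N-terminal one, had little masking at the N terminus. *HTA1* (YDR225W, chrIV:915530-915928, plus strand) and *HTA2* (YBL003C, chrII:235394-235792, minus strand) each had 2 masked positions in the first 40 codons, before a pair of arginine codons. None of the 4 lysine codons in that part was preceded by a masked position in either gene. Neither protein held a lysine-rich stretch, defined as residues covered by windows of 20 residues with at least 5 lysines. Both genes had a 2 bp run before the paired lysines 119 and 120 near the C terminus, counted after the initiator methionine.

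The copies of H2A differed most at 1 place. Codons 69 to 80, at chrIV:915734-915769 in *HTA1* and chrII:235553-235588 in *HTA2*, are shown with masked positions in capitals.
HTA1: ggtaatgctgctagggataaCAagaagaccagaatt
HTA2: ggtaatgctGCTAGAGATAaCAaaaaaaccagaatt
A run of 10 bp, bases 214 to 223 of the coding sequence, was masked in *HTA2* alone, and 1 of the 10 positions met the criteria as written. It stood upstream of the paired lysines at residues 75 and 76. The substitutions G228A and G231A, written as *HTA1* base, position from the A of the start codon and *HTA2* base, turned both lysine codons from AAG into AAA, and G219A lay within the run. Bases 225 and 226, at the start of the first of these lysine codons, were masked in both copies. *HTA2* had 17 masked coding positions, all 7 of *HTA1* plus these 10. The 399 bp sequences differed at 25 bases and the proteins at 2 residues.

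The H2B genes had the strongest N-terminal concentration. In *HTB1* (YDR224C, chrIV:914317-914712, minus strand) 20 of 25 masked coding positions lay in the first 40 codons, a share of 16.7% there and 1.81% in the rest. In *HTB2* (YBL002W, chrII:236492-236887, plus strand) the count was 17 of 22, a share of 14.2% against 1.81%. Both proteins had a lysine-rich stretch from residue 1 to 51, counted from methionine, with 14 lysines in *HTB1* and 13 in *HTB2*. It held every one of these N-terminal masked positions and had a masked share of 13.1% and 11.1%. In the other genes pooled, 11.7% of positions within such stretches were masked and 2.38% outside them. In both copies a masked run of 2 to 5 bp began just before each of the lysine pairs 6 and 7, 16 and 17, 21 and 22, and 30 and 31, and a run of 1 bp stood before the pair 88 and 89. Of the lysines that stand alone in both proteins, lysine 37, which follows an arginine, was preceded by a masked position, while lysines 11, 34, 46, 49, 60, 82 and 111 were not. Lysine 123, the residue that carries ubiquitin in yeast H2B, was not either.

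The *HTB* copies differed at 48 of 396 bases, the most of any pair, and at 4 residues. All 22 masked positions of *HTB2* were masked in *HTB1* as well. The further 3 in *HTB1* lay at bases 94, 111 and 112, at the ends of runs that both copies shared. *HTB1* also carries a lysine at position 3, where *HTB2* has alanine (K3A), and no masked position preceded it.

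In the H3 genes masking was spread along the sequence in short runs. *HHT1* (YBR010W, chrII:256331-256741, plus strand) and *HHT2* (YNL031C, chrXIV:575640-576050, minus strand) each had 12 runs of 1 to 3 bp. The first 40 codons held 7 of 18 masked positions in *HHT1* and 6 of 17 in *HHT2*, shares of 5.83% and 5.0%, against 3.78% in the rest of either gene. The lysine-rich stretch of residues 5 to 43 had a share of 5.13% in *HHT1* and 4.27% in *HHT2*, near the 4.08% outside it. The same 9 of 16 lysine codons followed a masked position in both copies. They included lysine 4, methylated by Set1, and lysine 36, methylated by Set2. The others were lysines 9, 18, 27, 37, 64 and the pair 121 and 122. Lysine 56, acetylated by Rtt109, and lysine 79, methylated by Dot1, followed none. Neither did lysines 14, 23, 42, 115 and 125.

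*HHT1* and *HHT2* encode the same protein and differed at 28 of 411 bases. *HHT2* used AAA for 7 of 16 lysine codons and *HHT1* for 2. The masked count was nevertheless close, 18 and 17, and 16 positions were masked in both. Base 11 was masked in *HHT1* and base 12 in *HHT2*, before lysine 4, where A12T and G15A separate the copies. Base 23 was masked in *HHT1* alone, with A24T next to it.

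In their coding sequences the H4 genes had no masked position that met the criteria as written. *HHF1* (YBR009C, chrII:255373-255684, minus strand) had 13 masked positions of 312 and *HHF2* (YNL030W, chrXIV:576727-577038, plus strand) had 17, and at every run the 6 bp after its last position held 4 As. In the other genes, coding sequences without a position meeting those criteria made up 5.11%, and 2 of the 10 histone genes were of this kind. These 2 are copies of each other and are not independent. They are also short, 312 bp against a median of 1197 bp in the other genes, and no background matched by length was used for this count. The acetylated lysines 5, 8, 12 and 16 of the H4 tail are separated by glycine, leucine and alanine codons. In *HHF1* none of these 4 followed a masked position, and only lysine 20 did among the 6 lysines of the first 40 codons. In *HHF2* lysine 12 did as well.

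That difference was a single site. The proteins are identical and the coding sequences differed at 8 bases. The 4 positions masked in *HHF2* alone, bases 32 to 35, directly precede the synonymous substitution T36A in the codon for glycine 11. The remaining 13 masked positions were the same in both copies. The share in the first 40 codons was 4.17% in *HHF1*, equal to the rest of the gene, and 7.50% in *HHF2* with 4.17% in the rest.

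*HTZ1* (YOL012C, chrXV:303579-303983, minus strand), whose product replaces H2A in nucleosomes near promoters, had 19 masked positions and only 3 of these in the first 40 codons (2.50%, with 5.61% in the rest). Its single lysine-rich stretch was C-terminal, residues 114 to 134, and held 11 masked positions, a share of 17.5% against 2.34% outside. The last 15 codons, chrXV:303579-303623, are shown with masked positions in capitals to mark the end of the gene.
HTZ1: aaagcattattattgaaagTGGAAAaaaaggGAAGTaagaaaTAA
All 3 bases of the stop codon were masked. *HTZ1* used AAA for 11 of 16 lysine codons, the highest proportion among the histone genes.

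*HHO1* (YPL127C, chrXVI:308828-309604, minus strand) had 58 lysines in 258 residues (22.5%) and 20 masked runs. Lysine-rich stretches covered 212 residues. They held 58 masked positions (9.12%), and the 141 bp outside held 4 (2.84%). The stretch from residue 100 to 181 alone had 36 masked positions in 246 bp (14.6%). The N-terminal 40 codons, with 14 lysines, had 9 (7.50%), below the 8.07% of the rest. The 18 bp run and the 5 codons after it, chrXVI:309212-309244, are shown as the longest masked run in a histone coding sequence.
HHO1: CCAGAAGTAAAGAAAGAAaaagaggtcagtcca
In this run 12 of 18 positions met the criteria as written.

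Of the 10 histone genes, 5 had a higher masked share in the first 40 codons than in the rest (*HTB1*, *HTB2*, *HHT1*, *HHT2* and *HHF2*), where 36.7% of the other genes longer than 40 codons did. The 5 include both copies of H2B and of H3, which are not independent. The histone genes were shorter, with a median of 399 bp against 1197 bp, and no background matched by length was used for this count. Over the 4 pairs of copies, 58 aligned positions were masked in both genes and 20 in 1 of them. Since the list depends only on the sequence, positions masked in 1 copy alone are found only near bases that differ. The number masked in a single copy was 10 for *HTA1* and *HTA2*, 3 for *HTB1* and *HTB2*, 3 for *HHT1* and *HHT2*, and 4 for *HHF1* and *HHF2*, and did not follow the number of bases that differ (25, 48, 28 and 8).

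**Figure D2:**
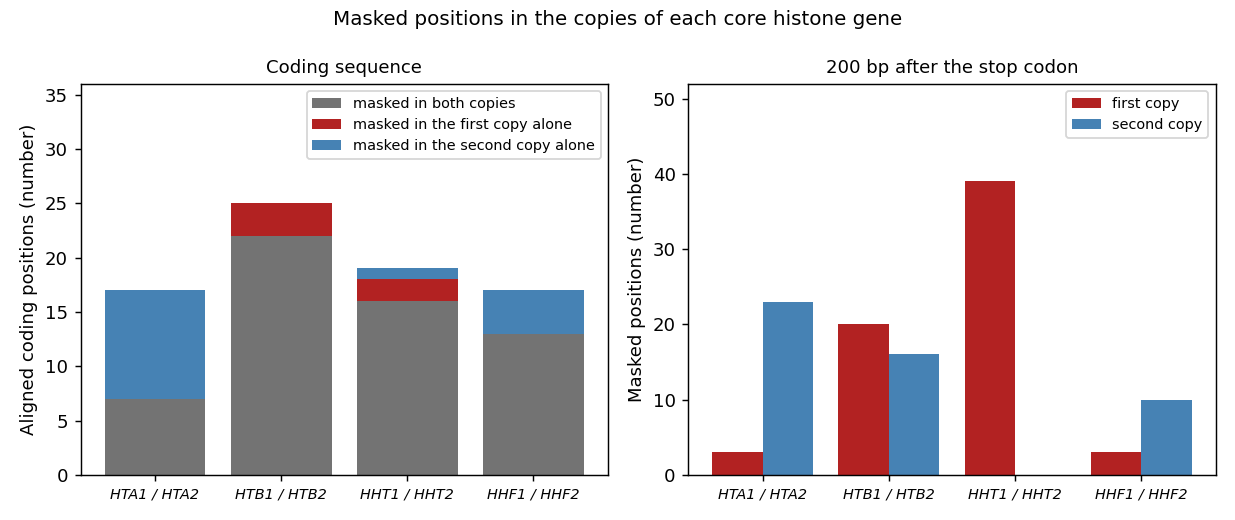
Masked positions in the copies of each core histone gene. The left panel counts aligned coding positions masked in both copies, in the first copy named or in the second, and the right panel counts masked positions in the 200 bp after each stop codon. Positions masked in both copies make up 7 of 17, 22 of 25, 16 of 19 and 13 of 17 coding positions, while the flank of *HHT1* has 39 masked positions and that of *HHT2* has 0.

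The 3′ flanks, in which the ends of the mRNAs are expected to fall, were compared between copies by their counts of masked positions, without alignment. Copy 1 minus copy 2 was -20 for H2A, 4 for H2B, 39 for H3 and -7 for H4. In the coding sequence the same difference was -10, 3, 1 and -4. Over the 10 genes 114 of 2000 flank positions were masked (5.70%), against 4.49% in the other genes pooled. The median was 3.25% for the histone genes and 2.50% for the others. A flank with no masked position was found for *HHT2*, *HTZ1* and *HHO1*, 3 of 10, and for 16.3% of the other genes. A flank share above the coding share was found for *HTA2*, *HTB1*, *HTB2* and *HHT1*, 4 of 10, and for 47.7% of the other genes. The flanks with the most masked positions were also rich in A. The A content was 36.5% to 38% in *HHT1*, *HTB1* and *HTA2*, with 20 to 39 masked positions, and 24% to 29% in *HTA1*, *HHO1*, *HTZ1* and *HHT2*, with 0 to 3. Between these lay *HTB2* (30.5% A, 16 masked positions), *HHF1* (33.5%, 3) and *HHF2* (34.5%, 10), where the order of the counts was not that of the A content.

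The flank of *HHT1* had 39 masked positions (19.5%), above the share of 97.2% of the other genes. Of these, 27 formed 1 run that began 21 bp and ended 47 bp past the stop codon, while 9 lay between 101 and 150 bp. In *HHT2* the first masked position came 209 bp after the stop codon. The 30 bp from the start of that run, chrII:256762-256791, and the 30 bp at the same distance in *HHT2*, chrXIV:575590-575619, are shown in the sense direction with masked positions in capitals.
HHT1 flank: TTAGTAAAAAACGAACAAAAACACAATaaa
HHT2 flank: tttttctatgcatttagactggggggacat
Of the 27 positions, 15 met the criteria as written.

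The H2A and H2B flanks also differed in where masking lay. *HTA1* had 3 masked positions, 18, 19 and 29 bp after the stop codon. *HTA2* had 23, in a run of 9 bp that began 9 bp after the stop codon, a run of 13 bp that began at 145 bp and a single position at 161 bp. *HTB1* had 20 masked positions, all between 47 and 70 bp. *HTB2* had 16, none of them in the first 150 bp and 15 in a run that began at 154 bp. The longest run of each of these 3 flanks is shown with the bases after it, in the sense direction and with masked positions in capitals, at chrII:235220-235249 (*HTA2*), chrIV:914241-914270 (*HTB1*) and chrII:237041-237070 (*HTB2*).
HTA2 flank: CTATTAATAAAGAaaaTaaaaaacgtatca
HTB1 flank: TATATAAAAATTAAAGTaaagTAAaaaaaa
HTB2 flank: TAACTTTATAAACAAaaaaaattgGgaaag

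In the H4 flanks *HHF1* had 3 masked positions, at 13, 14 and 105 bp, and *HHF2* had 10, a run of 7 bp from 45 bp and one of 3 bp from 158 bp. Over 400 bp the order was reversed, with 28 masked positions in *HHF1* and 10 in *HHF2*. The flank of *HHF2* overlapped the coding sequence of *KTR5*, a mannosyltransferase gene, on the opposite strand by 34 bp. No flank overlapped another coding sequence on its own strand. The single flanks of *HTZ1* and *HHO1* were followed by a first masked position at 293 and 329 bp.

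**Figure D3:**
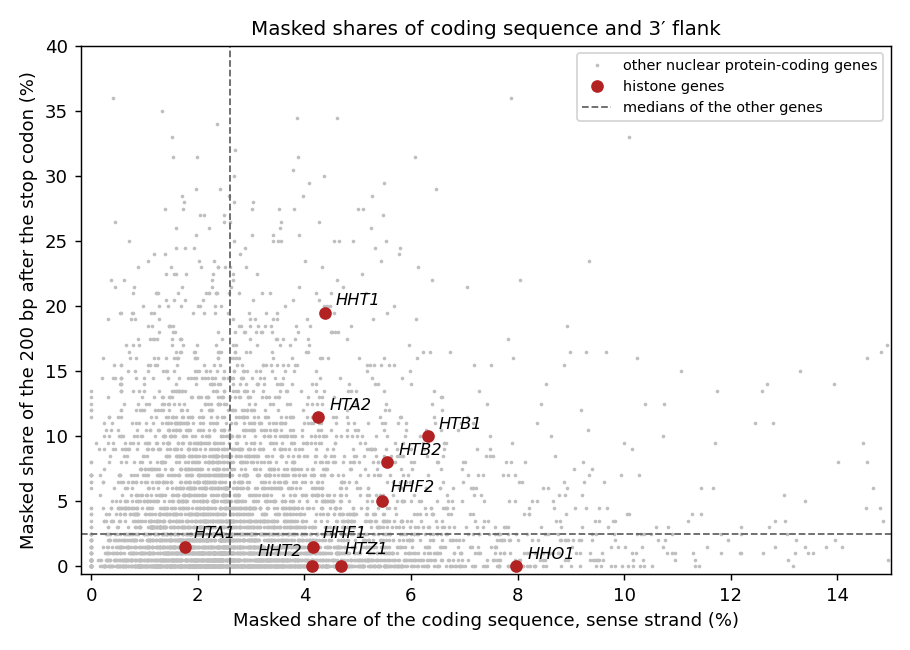
Masked share of the coding sequence (x axis, %) and of the 200 bp after the stop codon (y axis, %), on the sense strand. Red points are the 10 histone genes, grey points the other genes (19 lie outside the axes), and dashed lines the medians of the other genes, 2.61% and 2.50%. The red points other than *HTA1* lie right of the vertical line, and *HHT1*, *HTA2*, *HTB1*, *HTB2* and *HHF2* lie above the horizontal one.

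The deposited list was longer than the criteria as written select. In the histone coding sequences 70 of the 217 masked positions met them (32.3%), and in the other genes 38.6% did. Read as at least 4 and at least 12 As, the criteria selected 212 of the 217. In the flanks the criteria as written selected 53 of 114 positions (46.5%), against 55.1% in the other genes, and the lower thresholds 106. By the criteria as written *HHO1* kept 30 of 62 coding positions, *HTB1* 9 of 25, *HTB2* 9 of 22, *HHT1* 5 of 18, *HHT2* 6 of 17, *HTZ1* 5 of 19, *HTA2* 4 of 17 and *HTA1* 2 of 7.

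**Figure D4:**
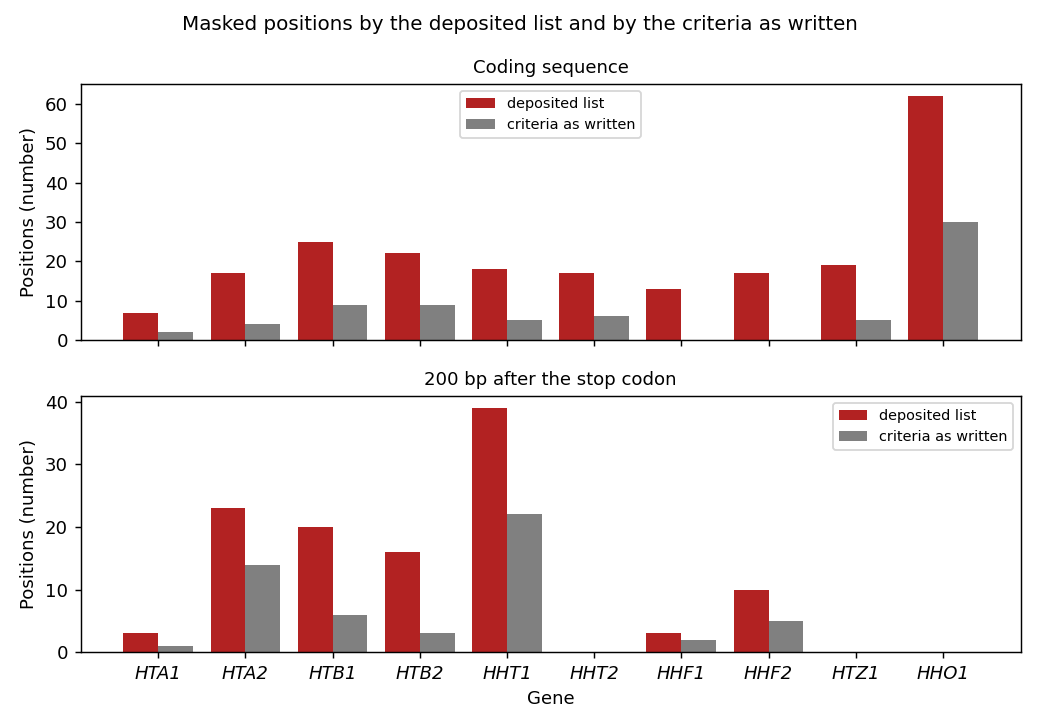
Positions per histone gene in the deposited list (red) and by the criteria as written (grey), in the coding sequence (upper panel) and in the 200 bp after the stop codon (lower panel). Grey bars are lower than red bars for every gene with a red bar, and are at 0 in the coding sequences of *HHF1* and *HHF2*.

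Near-identical copies bear on these genes in a second way, since the study kept uniquely mapped reads of at most 50 bases. For each 3′ end position, the 50 bases that end there were looked up in the whole *S. cerevisiae* genome on both strands. The *S. pombe* spike-in genome, to which reads were also mapped, was not searched. At least 1 coding position with a repeated 50-base sequence was found in 6 of the 10 histone genes, and in 8.29% of the other genes. The count was 56 positions in each of *HHF1* and *HHF2* (17.9% of the gene), 44 in *HHT1* and *HHT2* (10.7%) and 17 in *HTA1* and *HTA2* (4.26%). In *HTB1*, *HTB2*, *HTZ1* and *HHO1* it was 0, and in every flank it was 0. Positions that were both unmasked and unique made up 77.6% of the coding sequence in *HHF2* and 78.8% in *HHF1*, 84.9% in *HHT1* and 85.2% in *HHT2*, and 91.5% to 95.3% in the other 6 genes. For the H4 and H3 copies and for *HTA1*, repeated sequence thus covered more coding positions than masking did. In *HTA2* the counts were equal, at 17. With 20 bases, the shortest trimmed read, repeated positions made up 54.5% of *HHF1* and *HHF2*, 31.6% of *HHT1* and *HHT2*, 25.6% of *HTA1* and *HTA2* and 7.58% of *HTB1* and *HTB2*, and remained at 0 in *HTZ1* and *HHO1*.

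A list of 47 further genes held *CSE4* and 46 genes that act on histones or on their transcription, and all 47 were in the annotation. *CSE4* had 51 of 690 coding positions masked (7.39%) and no masked position in its 3′ flank. Of the 46 others, 32 had a share above the median of the background genes, again against 50% by construction, and their median was 3.72%. The highest shares of the list were those of *CHZ1*, a chaperone of H2A.Z and H2B (13.2%), *RLF2*, a subunit of chromatin assembly factor 1 (11.2%), and *HPC2*, a subunit of the HIR complex (7.40%). The lowest were those of *CAC2* (0.995%) and *MSI1* (1.65%), the other subunits of chromatin assembly factor 1, and of *SIR2*, a histone deacetylase (1.78%). Of the list, only *CHZ1* and *RLF2* exceeded *HHO1*.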

How the data were processed

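The authors deposited 1 list of genomic positions: 223663 strand-specific runs on 17 chromosomes of sacCer3, each with a start and an end and no measured value. According to the methods they derived it from the genome sequence after Roy et al. and removed the positions from the 3′ end tracks with bedtools. The submitters' processing notes also name STAR, SAMtools 1.3 and HTSeq 0.6.0. The list holds no column of a sample.

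The reference was R64, the sequence of sacCer3. No run passed a chromosome end, and 100% of the 296397 positions selected by the written criteria were in the list. Coding sequences of 6002 nuclear genes were read with Python 3.11.15, numpy 2.4.6 and Biopython 1.88, and figures were drawn with matplotlib 3.10.9. Copies have equal lengths and were aligned base by base without gaps. The functions for the criteria and for repeated sequence were tested on simulated data against plain loops, with 0 of 100000 and 0 of 10300 positions different. Annotated transcript ends were not used here.

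The members and lists were chosen with earlier results of these data known. All 10 histone genes are named, together with the 3 highest and 3 lowest of a list of 47 genes (*CSE4* and 46 that act on histones or their transcription) and the genes that reach into a flank. *CSE4* falls outside this rule and was added after its value was seen. Alternatives were the criteria as written and with lower thresholds, flanks of 100 and 400 bp, N-terminal parts of 25 and 50 codons, background genes of 300 to 1000 bp, and 20-base sequences.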

Additional observations from a re-analysis of the deposited data

How the results depend on the processing

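With the criteria as written, the median masked share of the histone coding sequences fell from 4.54% to 1.23% and that of the flanks from 3.25% to 1.25%. With at least 4 and at least 12 As the coding median was 4.41%. The flank median was 2.50% over 100 bp and 4.75% over 400 bp. The difference *HHT1* minus *HHT2* in coding positions turned from 1 to -1 with the criteria as written, and *HHF1* minus *HHF2* in flank positions turned from -7 to 18 over 400 bp. The counts of genes by N-terminal share (5, with 5 or 6 under the alternatives), by coding share above the median (9, with 7 or 9) and by flank above coding share (4, with 5 or 6) stayed within 1.5 times. The flank differences of the other pairs kept their direction. With the criteria as written the coding difference *HTA1* minus *HTA2* moved from -10 to -2. The coding difference of *HTB1* and *HTB2* and that of *HHF1* and *HHF2* became 0 with the criteria as written.

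No paired analysis was possible because the list has no samples. The list says where signal was removed, not how much. Transcript ends were not used. Whether any 3′ end was read at these positions, and whether W303 carries the same bases, was not analysed here.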
